A study of Homo sapiens with 16 samples.

Results

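Untreated NCI-H929, a human multiple myeloma line and so a tumor of plasma cells, was compared with untreated NCI-H526 and NCI-H1048, which come from small cell lung cancers of the tuft-like, POU2F3-driven kind (SCLC-P). The members were the libraries with DMSO, the solvent of the degrader AU-15330, that had been made by poly(A) selection: 2 of NCI-H929, 2 of NCI-H526 and 2 of NCI-H1048, or 6 of the 16 libraries of the series. A second myeloma line, MM1.S, was left out because its libraries were made by ribosomal RNA depletion. A gene counted as higher or lower in NCI-H929 only if it differed in the same direction from each lung line.

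All 3 lines were grown in RPMI with 10% fetal bovine serum, with 0.05 mM 2-mercaptoethanol added for NCI-H929 alone, and no line carried an engineered allele according to the labels. Sample titles give 24 h in DMSO or AU-15330, while the notes of the submitters give other times, so the duration is not certain. The plasma cell side rests on 1 line and the tuft-like side on 2, each line coming from 1 tumor, so line, lineage, medium and library depth cannot be told apart. Nothing in the labels says that the 2 libraries of a line were separate cultures, and p-values therefore measure the spread between libraries, not between tumors.

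RNA abundance is given as the deposited scaled value, which is close to a count per 1e+06 reads and is not divided by gene length, so it is compared between lines for 1 gene and not between genes. Estimated depth was 12.0 and 13.3 M reads (M, 1e+06 reads) in NCI-H929, 38.1 and 43.0 M in NCI-H526 and 39.2 and 33.3 M in NCI-H1048. In the shallowest library, 3 reads came to a scaled value of 0.293, and an entry of 0 can hide a level below that. Log2 values of the 2 libraries of a line correlated across genes with r of 0.994 in NCI-H929, 0.998 in NCI-H526 and 0.997 in NCI-H1048. Genes with a scaled value of at least 1 numbered 12640 to 12699 in NCI-H929 and 13689 to 13822 in the lung lines.

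Plasma cells are the antibody-secreting end stage of the B lineage. IRF4, PRDM1 and XBP1 shut down the B cell program, hold plasma cell identity and build the endoplasmic reticulum (ER) that folds and exports immunoglobulin. Tuft cells are rare chemosensory cells of epithelia, whose identity depends on POU2F3, and SCLC-P tumors keep much of that program. Octamer-binding POU2F factors work in both lineages with different coactivators: POU2AF1 (also called OCA-B) with POU2F1 and POU2F2 in B and plasma cells, and POU2AF2 and POU2AF3 with POU2F3 in tuft cells.

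Of 14567 tested genes, 1732 were higher in NCI-H929 than in both lung lines and 2860 were lower (limma-trend, Benjamini-Hochberg adjusted p below 0.05 and a change of at least 2-fold against each line). These are 11.9% and 19.6% of the genes tested, and the counts of each gene list below stand beside these shares. Against single lines, the calls were 2849 higher (19.6%) and 4215 lower (28.9%) for NCI-H526, and 2708 higher (18.6%) and 4310 lower (29.6%) for NCI-H1048. Both comparisons use the same 2 NCI-H929 libraries. A further 267 genes were called in opposite directions, 165 above NCI-H526 and below NCI-H1048 and 102 the other way, and 5344 were called against neither line.

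Many of the calls were large. The nearer change, the smaller of the 2 log2 changes of a gene, was at least 4 for 283 of the higher genes and at most -4 for 469 of the lower ones. Among the higher genes, 324 had a scaled value of at most 1 in all 4 lung libraries, 28 of them listed at 0, and among the lower genes 1136 had at most 1 in both NCI-H929 libraries, 316 of them at 0. The lung lines also differed from each other by at least 2-fold at 2209 genes higher and 2735 lower in NCI-H526. The nearer change exceeded this gap between the lung lines for 1527 of the higher and 2437 of the lower genes. The higher genes made up 37.7% of calls with the deposited scaling, 29.4% after scaling to library totals and 51.8% after quantile normalization, so the balance of directions depends on the scaling.

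Ranked by the nearer change among genes whose mean reached 10, the 15 highest were JCHAIN, IGKC, ITGB7, AMPD1, TNFRSF17, ITGAL, IL32, SLC2A5, PRDM1, IRF4, IGLL5, CCND2, CCR1, LSP1 and MAGEA4. They hold antibody chains, receptors and adhesion molecules of plasma cells and other leukocytes, an AMP deaminase (AMPD1), a fructose transporter (SLC2A5) and a cancer-testis antigen (MAGEA4). AMPD1 stood at 1186 and 1207 in NCI-H929 and at no more than 0.0595 in any lung library. CCR1, a chemokine receptor, was at 338 and 353 in NCI-H929 and listed at 0 in all 4 lung libraries. The largest adjusted p of these 15 genes against either line was 4.53e-09. For these genes one side lies near 0, so the fitted change depends on the added constant of 0.5 and levels are given instead.

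The 15 lowest were KIF1A, POU2F3, KIT, CD24, MDK, EHF, ANXA1, CKB, MEX3A, SOX9, IL13RA1, ESRP1, AZGP1, EPCAM and MACROH2A2. KIF1A, a kinesin that carries vesicles along microtubules, was at 0.195 and 0.0893 in NCI-H929, 1093 and 1086 in NCI-H526 and 754 and 693 in NCI-H1048. EHF, an epithelial ETS factor, was listed at 0 in both NCI-H929 libraries against 187 and 185 in NCI-H526 and 321 and 350.4 in NCI-H1048. The histone variant gene MACROH2A2 was also at 0 in NCI-H929, against 97.8 and 101 in NCI-H526 and 150.4 and 152 in NCI-H1048. The largest adjusted p of these 15 genes was 2.13e-08.

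**Figure D1:**
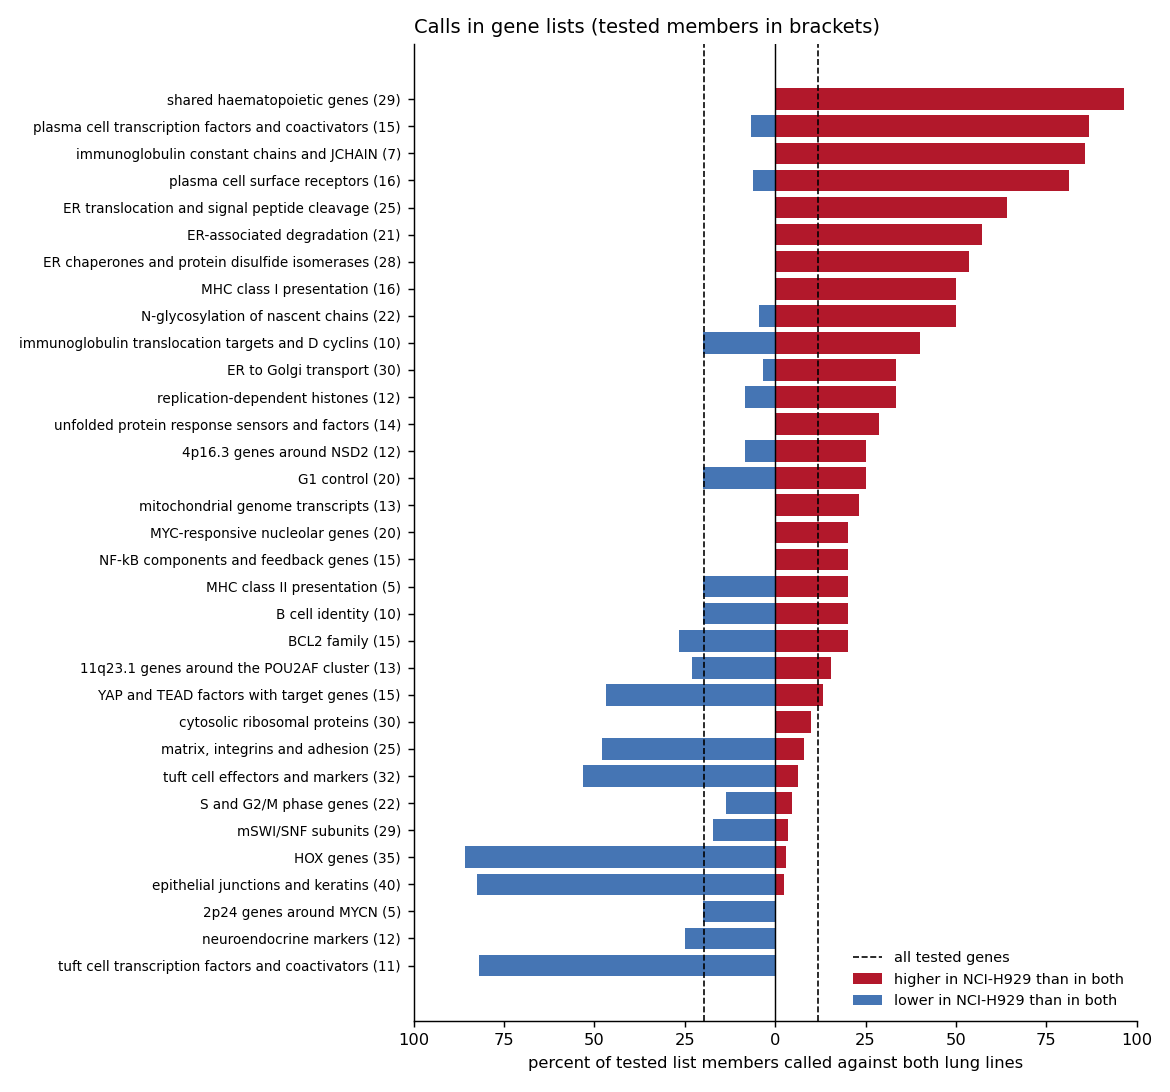
Share of the tested members of each gene list called higher (to the right, red) or lower (to the left, blue) in NCI-H929 than in both lung lines, with the number tested in brackets and lists of under 5 tested members left out. The dashed lines mark the shares over all tested genes, 11.9% higher and 19.6% lower. Hematopoietic, plasma cell and ER lists extend to the right, and tuft cell, epithelial and HOX lists to the left.

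Of the octamer factors and their coactivators, POU2AF1 and POU2F2 were higher in NCI-H929 than in both lung lines, POU2F3, POU2AF2 and POU2AF3 were lower, and POU2F1 was called against neither. POU2AF1 was at 613 and 585 in NCI-H929, 4.94 and 3.83 in NCI-H526 and 9.46 and 9.62 in NCI-H1048. Its log2 change was 6.95 (SE 0.106) against NCI-H526 and 5.90 against NCI-H1048, with adjusted p of 1.85e-09 and 4.15e-09. POU2F2, the lymphoid octamer factor, was likewise higher, at 48.7 and 52.3 in NCI-H929, 1.54 and 1.84 in NCI-H526 and 0.5 and 0.714 in NCI-H1048. The widely expressed POU2F1 was present in every library, at 105 and 103 in NCI-H929, 189 and 186 in NCI-H526 and 124 and 114 in NCI-H1048. Its change was under 2-fold against each line.

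The tuft cell factor and its partners had the opposite order. POU2F3 was at 0 and 0.0893 in NCI-H929, 1280.2 and 1287 in NCI-H526 and 600.0 and 534 in NCI-H1048. POU2AF2 and POU2AF3 were both listed at 0 in NCI-H929. The adjusted p of these 3 genes was at most 9.12e-09 against either line. Between the lung lines both coactivator genes differed, in opposite directions: POU2AF2 was at 191 and 189 in NCI-H526 and 20.1 and 19.4 in NCI-H1048, whereas POU2AF3 was at 9.60 and 10.7 in NCI-H526 and 252 and 253 in NCI-H1048.

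**Figure D2:**
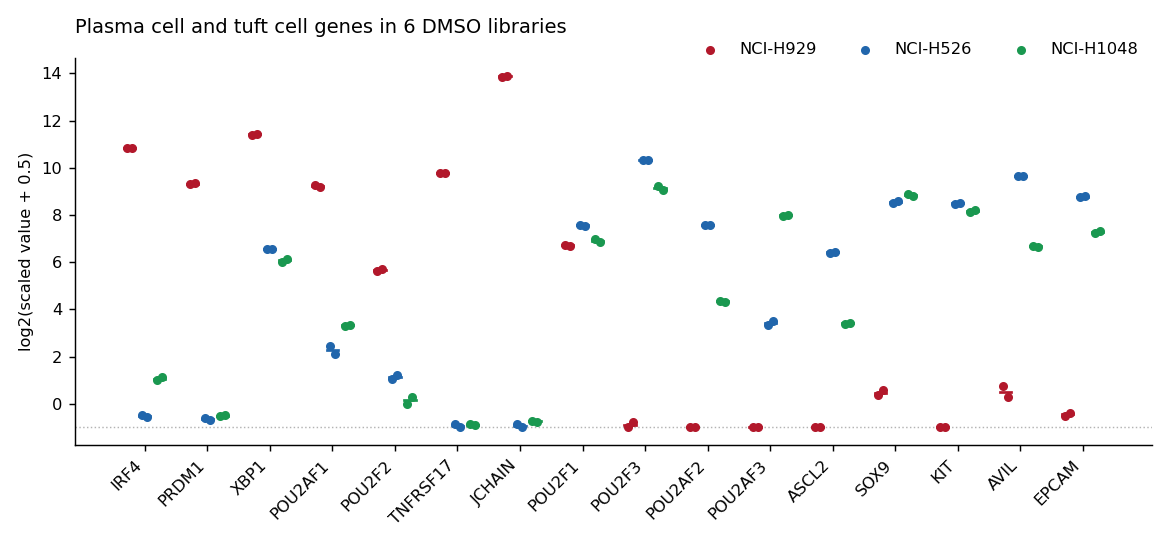
Scaled values, as log2(value + 0.5), of plasma cell genes (left) and tuft cell or epithelial genes (right) in each DMSO library, 2 points per line with a bar at their mean. The dotted line marks a value of 0. IRF4, PRDM1, TNFRSF17 and JCHAIN are high in NCI-H929 alone, POU2F3, KIT and EPCAM in the lung lines alone, and POU2F1 is present in all 3.

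The 3 coactivator genes are neighbors at 11q23.1. On GRCh38, with GENCODE 44 gene bounds, POU2AF2 lies at chr11:111245725-111286401 and POU2AF3 at chr11:111298546-111308735, both on the plus strand, and POU2AF1 at chr11:111352255-111455630 on the minus strand. Of 13 tested genes from a list around the cluster, 2 were higher in NCI-H929 (POU2AF1 and FDXACB1) and 3 lower (POU2AF2, POU2AF3 and ARHGAP20). Over all tested genes the shares were 11.9% and 19.6%. The list medians were -1.04 and -0.15 beside -0.16 and -0.16 over all tested genes. RDX, which encodes radixin, a link between actin and the membrane, was at 92.1 and 95.3 in NCI-H929, 641 and 672 in NCI-H526 and 165 and 166 in NCI-H1048. FDX1, a mitochondrial ferredoxin, was at 70.9 and 74.6 in NCI-H929, 64.1 and 60.9 in NCI-H526 and 25.2 and 25.7 in NCI-H1048.

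**Figure D3:**
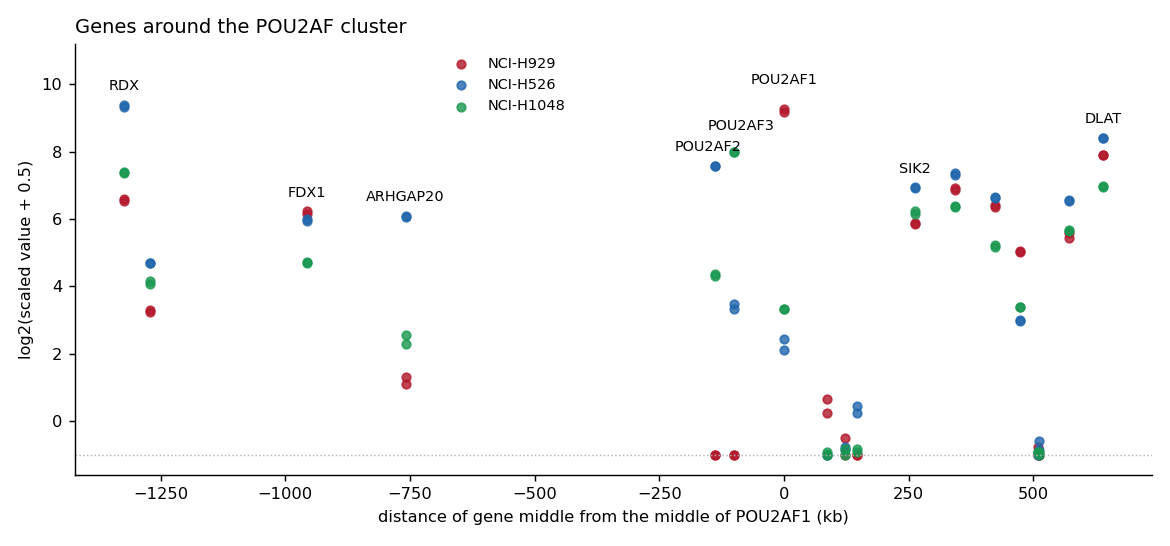
Scaled values, as log2(value + 0.5), of genes around the POU2AF cluster against the distance of the middle of each gene from the middle of POU2AF1, in kb, with 2 points per line. POU2AF1 is high in NCI-H929, POU2AF2 and POU2AF3 are at 0 there (dotted line), and genes on either side such as SIK2 and DLAT are present in all 3 lines.

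Of 15 tested plasma cell transcription factors and coactivators, 13 were higher in NCI-H929 than in both lines and 1, ZBTB20, was lower; the median log2 change was 4.93 against NCI-H526 and 5.47 against NCI-H1048. IRF4 was at 1834 and 1835 in NCI-H929, 0.22 and 0.17 in NCI-H526 and 1.52 and 1.67 in NCI-H1048. PRDM1, the repressor that ends the B cell program, was at 641 and 646 in NCI-H929 and at no more than 0.208 in the lung libraries. XBP1 was at 2717 and 2787 in NCI-H929 and, unlike the first 2, was clearly present in NCI-H526 (93.1 and 93.7) and NCI-H1048 (64.6 and 69.1), with log2 changes of 4.87 and 5.35. The adjusted p of IRF4, PRDM1 and XBP1 was at most 6.7e-10.

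Other members followed. The Ikaros family gene IKZF3 was at 366 and 359.6 and IKZF1 at 163 and 177 in NCI-H929, and neither exceeded 2.90 in a lung library. MEF2C, a MADS-box factor of the B lineage, was at 405 and 419 in NCI-H929 against 5.79 and 6.64 in NCI-H526 and 8.79 and 8.80 in NCI-H1048. ZBTB20 went the other way, at 10.3 and 12.6 in NCI-H929, 92.4 and 88.6 in NCI-H526 and 92.9 and 89.6 in NCI-H1048, and is a zinc finger repressor known from plasma cells as well as other tissues. BHLHA15 (MIST1), which expands the secretory apparatus, was at 26.4 and 25.0 in NCI-H929 and below 1 in every lung library.

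Antibody chains and the J chain took a far larger share of the NCI-H929 libraries than of the lung libraries. Of 16 genes for constant chains, related segments and the J chain, 7 passed the filter and 9 did not. In both NCI-H929 libraries 6 of the 16 were at 0. Members passed the filter mostly by being high in NCI-H929, so a count among them also reflects the filter. Of the 7, 6 were higher, with a median log2 change of 9.31 and 9.21 over the tested genes. Since the lung lines lie near 0, that median was 11.63 and 11.21 with an added constant of 0.1 and 8.31 and 8.26 with 1. JCHAIN, which joins IgA and IgM into polymers, made up 1.27% of the scaled total of each NCI-H929 library and IGKC, the kappa constant region, 0.780% and 0.803%. In the lung lines JCHAIN did not exceed 0.0999 and IGKC did not exceed 0.121. All immunoglobulin segments together took 0.850% and 0.873% of NCI-H929 totals and at most 0.00200% of lung line totals.

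Heavy chain constant genes had values near 0. IGHA1 was at 3.77 and 3.72 in NCI-H929 and at 0 in the lung lines, IGHA2 was at 1.07 and 0.604, and IGHG1 and IGHG2 were listed at 0 in NCI-H929. IGHM was the exception of the list, at 0 in NCI-H929 and at 13.5 and 14.6 in NCI-H1048, with at most 0.0406 in NCI-H526. Lambda chain genes IGLC1 (307 and 328) and IGLL5 (494 and 515) were present in NCI-H929 beside kappa. IGLL5 and IGLC1 overlap at their locus, so reads may be split between them, and constant genes of 1 class are near copies, which makes single values uncertain. Of the kappa variable segments, IGKV3-15 was at 219 and 216 in NCI-H929.

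Plasma cell surface receptors followed the same direction. Of 19 listed, 16 passed the filter, 13 of them higher and 1, TNFRSF13C, lower. Several passed the filter through NCI-H929 alone. Medians were 7.24 and 6.49 (8.16 and 7.58 with an added constant of 0.1 and 6.82 and 6.11 with 1). SDC1 (CD138), a heparan sulfate proteoglycan used to identify plasma cells, was at 585 and 597 in NCI-H929 but also at 36.4 and 37.3 in NCI-H526 and 118 and 121 in NCI-H1048. TNFRSF17 (BCMA), the survival receptor for BAFF and APRIL, was at 868 and 877 and at most 0.0552 in a lung library. CD38 was at 405 and 397 and SLAMF7 at 391 and 396 in NCI-H929, against at most 2.14 and 0.15 in the lung lines.

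Among the receptors with the largest nearer change, ITGB7, the beta chain of gut-homing integrins, was at 4094 and 4148 in NCI-H929. CD28, a costimulatory receptor, was at 303 and 313, CD48 at 564 and 598 and the interleukin-6 receptor gene IL6R at 837 and 867. In the lung lines IL6R did not exceed 2.75, and CD28 and CD48 stayed below 1. TNFRSF13C, the BAFF receptor of earlier B cells, was at 0.293 and 0.804 in NCI-H929 against 3.63 and 3.12 in NCI-H526 and 4.17 and 3.37 in NCI-H1048.

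Most general hematopoietic genes that could be tested were higher in NCI-H929. Of 33 listed, 29 passed the filter, 28 were higher and none lower, with medians of 6.77 and 5.53. The list was low in the lung lines, so members passed the filter mostly by being high in NCI-H929. The count therefore also reflects the filter. All 33 summed to 6965 and 7099.5 in NCI-H929, 90.0 and 87.2 in NCI-H526 and 154 and 160 in NCI-H1048. The tested gene without a common call was LAPTM5, at 0.683 and 1.16 in NCI-H929, 2.03 and 2.33 in NCI-H526 and 3.87 and 3.87 in NCI-H1048. PTPRC (CD45), the pan-leukocyte phosphatase, was at only 22.4 and 21.8 in NCI-H929 but below 1 in every lung library. CD53, a leukocyte tetraspanin, was at 327 and 328, CORO1A, an actin regulator, at 924 and 938 and LCP1, an actin bundler, at 75.1 and 84.2. The lung lines were not empty of the latter: CORO1A was at 20.3 and 21.2 and LCP1 at 17.3 and 20.1 in NCI-H1048. ITGAL, the alpha chain of LFA-1, was at 918 and 927 in NCI-H929, while ITGB2, its partner chain, did not pass the filter at 1.07 and 2.05. LSP1, CYTIP, EVI2B, RAC2 and HCLS1, which act in leukocyte signaling and motility, were the other large changes, with nearer log2 changes of 7.71 to 9.32.

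Genes of B cell identity, the program upstream of the plasma cell, did not move as one. Of 18, 10 passed the filter, 2 were higher in NCI-H929 (BTK and CD79B) and 2 lower. Over all tested genes 11.9% were higher and 19.6% lower. All 18 summed to 108.5 and 109.9 in NCI-H929, 404 and 407 in NCI-H526 and 73.2 and 69.8 in NCI-H1048. MS4A1 (CD20), a marker of mature B cells, did not exceed 0.268 in NCI-H929. The 2 lower genes were the B cell master factors themselves: PAX5 was at 0.588 and 0.446 in NCI-H929, 283 and 283 in NCI-H526 and 6.02 and 5.77 in NCI-H1048, and EBF1 at 0.488 and 0.179 in NCI-H929, 65.4 and 71.1 in NCI-H526 and 6.37 and 6.99 in NCI-H1048. Both are thus transcribed in the lung lines and near the limit of detection in the myeloma line.

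Most markers of other blood cells stood near 0, with CD3E as the main exception. Of 13 genes of T cells, natural killer cells and myeloid cells, 3 passed the filter, and the scaled values of all 13 summed to 50.3 and 47.2 in NCI-H929, 3.02 and 2.76 in NCI-H526 and 4.65 and 4.62 in NCI-H1048. Most of the NCI-H929 sum came from CD3E, a T cell receptor subunit, at 42.4 and 41.5, whereas its partner CD3D and CD2 were listed at 0. CD3E was called higher than in both lung lines, with a log2 change of 6.41 against each. CD8A was at 0 in NCI-H929 and lower than in both lung lines, at 1.87 and 1.85 in NCI-H526 and 3.07 and 3.30 in NCI-H1048. S100A9, a myeloid calcium-binding protein, was higher at 4.00 and 2.41.

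Genes of the secretory pathway were higher in NCI-H929 at most steps. The counts of the secretory lists stand beside 11.9% higher and 19.6% lower over all tested genes. Among ER chaperones and disulfide isomerases, 15 of 28 tested were higher and none was lower, with medians of 1.40 and 1.501. HSPA5 (BiP), the main Hsp70 of the ER, was at 1768 and 1814 in NCI-H929, 495 and 496 in NCI-H526 and 416 and 426 in NCI-H1048, a log2 change of 1.85 (SE 0.0364) and 2.09 with adjusted p of 5.54e-09 and 3.68e-09. CALR, the lectin chaperone calreticulin, was 1.42 and 1.501 higher on the log2 scale. HSP90B1 changed by 0.89 against NCI-H526, short of 2-fold, and CANX, the membrane partner of CALR, fell between the lung lines at 156 and 175 against 53.8 and 57.1 in NCI-H526 and 486 and 520.1 in NCI-H1048.

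The 6 chaperone genes with the largest nearer changes were MZB1, TXNDC5, TXNDC11, DNAJB9, FKBP11 and P4HB. MZB1, which works with the ER Hsp90 on immunoglobulin, was at 651 and 628 in NCI-H929 and below 1 in the lung lines. TXNDC5, a disulfide isomerase, was at 7042 and 7274 in NCI-H929, 166 and 167 in NCI-H526 and 189 and 200.4 in NCI-H1048, and took 0.603% and 0.610% of NCI-H929 totals. TXNDC11 was 4.23 and 5.54 higher, DNAJB9 3.30 and 4.404, FKBP11 3.54 and 2.65 and P4HB 2.20 and 2.12 on the log2 scale.

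Entry into the ER had the highest list medians of the pathway, 2.07 and 1.90, with 16 of 25 genes higher and none lower. SEC61A1, the pore of the translocon, was at 992 and 1014 in NCI-H929, 376 and 377 in NCI-H526 and 189.9 and 190.0 in NCI-H1048, and SEC61B was 2.23 and 1.54 higher. SEC61G reached 1.64 and 0.995, just short of the call, and SEC62 0.28 and 0.74. SEC11C, a catalytic subunit of signal peptidase, had the largest nearer change, 3.70, followed by TRAM1, TRAM2, SPCS1, SPCS3 and SSR3 with nearer changes of 2.66 to 3.16.

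ER-associated degradation, which returns misfolded proteins to the cytosol, had 12 of 21 genes higher and none lower (medians 1.15 and 1.82). HERPUD1 had the largest nearer change, 4.81, with 752 and 755 in NCI-H929 against 26.3 and 26.6 in NCI-H526 and 18.4 and 19.7 in NCI-H1048. DERL3 was at 83.2 and 82.3 against 5.71 and 5.97 in NCI-H526 and 1.92 and 2.11 in NCI-H1048, and SEL1L, the adaptor of the HRD1 ligase, changed by 3.24 and 3.36. UBE2J1, EDEM1 and EDEM2 were also among the largest, at 2.30 to 4.50. DERL2 was higher than in both lines, while DERL1 changed by 0.97 against NCI-H526. N-glycosylation had 11 of 22 higher and 1 lower: DDOST, DAD1 and RPN2 of the oligosaccharyltransferase were above both lines (1.14 to 1.65), as were its catalytic subunits STT3A and STT3B and the pathway enzymes ALG1, ALG2 and MOGS (1.81 to 2.70). RPN1 changed by 0.69 against NCI-H526, short of 2-fold, and TUSC3, an alternative subunit, was at 1.66 and 1.43 against 47.8 and 46.7 in NCI-H526 and 118 and 129 in NCI-H1048.

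Transport to the Golgi had 10 of 30 genes higher and 1 lower, with medians of 1.01 and 1.04. The COPII cargo genes did not move as one: SEC24D had the largest nearer change, 2.73, SEC24A changed by 1.497 and 1.45, SEC24B by -0.43 and -0.56, and SEC23A was the lower gene, at 44.7 and 45.3 against 96.6 and 100.3 in NCI-H526 and 104 and 113 in NCI-H1048. KDELR1, USO1, TMED9 and SAR1B had nearer changes of 1.69 to 2.42, and SEC23B changed by -0.26 and 0.36. LMAN1, a cargo receptor for glycoproteins, was at 1359.7 and 1412 in NCI-H929, 214 and 213 in NCI-H526 and 158 and 159.8 in NCI-H1048.

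The unfolded protein response was uneven. Of 14 tested genes, 4 were higher (XBP1, ERN1, EIF2AK3 and CREB3L2) and none lower, with medians of 1.17 and 0.63. The shares over all tested genes were 11.9% higher and 19.6% lower. ERN1 (IRE1), the sensor that splices XBP1, was at 216 and 209 in NCI-H929, 8.30 and 7.14 in NCI-H526 and 8.998 and 9.495 in NCI-H1048, and EIF2AK3 (PERK) at 326 and 344 in NCI-H929, 30.7 and 29.7 in NCI-H526 and 23.6 and 22.2 in NCI-H1048. The third sensor gene, ATF6, changed by 0.75 and 1.37, and its relative ATF6B by 0.15 and 1.47. DDIT3 (CHOP), the factor of the terminal response, was at 7.51 and 10.1 in NCI-H929, 18.9 and 20.2 in NCI-H526 and 10.2 and 11.7 in NCI-H1048, lower than in NCI-H526 alone, and was chosen after its values were seen. With total-count scaling the higher genes were 13 for chaperones, 15 for ER entry, 9 for ER-associated degradation, 10 for N-glycosylation and 8 for Golgi transport. Quantile normalization gave 13, 15, 11, 11 and 8 in that order. For the unfolded protein response the counts were 4 and 5. List medians stayed above 0 with both scalings, the lowest being 0.37 against NCI-H1048 for the unfolded protein response.

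**Figure D4:**
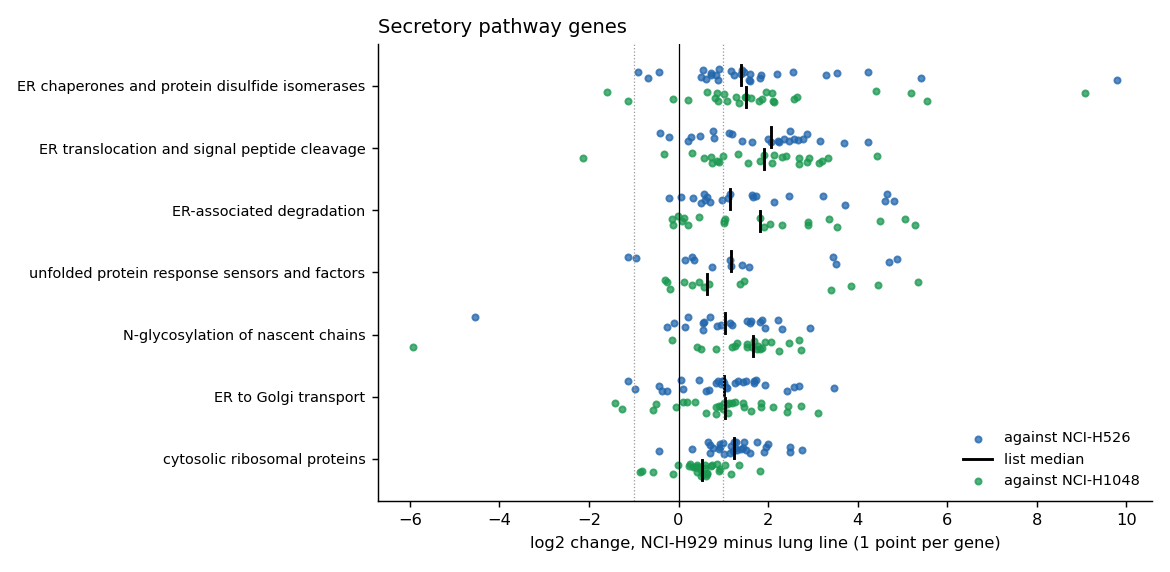
Log2 change of each tested gene of 6 secretory pathway lists, and of cytosolic ribosomal proteins, in NCI-H929 against NCI-H526 (blue) and against NCI-H1048 (green), with black bars at the list medians and dotted lines at a 2-fold change. The medians of the ER lists lie between 0.63 and 2.07.

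RefSeq promoters (250 bases before to 50 after the first listed start, GRCh38.p14, matched by symbol) were available for 11179 of the tested genes and were searched on both strands. The ER stress response element, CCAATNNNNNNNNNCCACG, was in 15 of them (0.134%), in 6 of 1236 promoters of higher genes (0.485%) and in none of 2132 of lower genes. Of the 27 ER chaperone promoters, 6 held it: those of CALR, CANX, CRELD2, ERO1B, HSP90B1 and HSPA5, and that of XBP1 did too. The shorter XBP1 element, TGACGTGG, was in 0.930% of tested promoters, 1.46% of those of higher genes and 0.750% of those of lower genes, and in 6 of 25 promoters of ER-to-Golgi genes and 3 of 27 of chaperones. Promoters of 3 higher genes with the first element and 2 with the second are printed to show the letters, 5′ to 3′ on the strand of the gene, with matched letters in capitals. None of the 5 holds a match to both elements.
HSPA5 (chr9:125241294-125241593, minus strand): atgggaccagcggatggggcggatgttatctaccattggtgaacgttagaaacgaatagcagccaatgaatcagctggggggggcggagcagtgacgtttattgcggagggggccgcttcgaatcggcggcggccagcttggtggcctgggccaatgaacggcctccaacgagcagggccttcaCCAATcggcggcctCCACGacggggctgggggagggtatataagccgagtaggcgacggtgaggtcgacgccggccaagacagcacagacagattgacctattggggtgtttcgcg
CALR (chr19:12938359-12938658, plus strand): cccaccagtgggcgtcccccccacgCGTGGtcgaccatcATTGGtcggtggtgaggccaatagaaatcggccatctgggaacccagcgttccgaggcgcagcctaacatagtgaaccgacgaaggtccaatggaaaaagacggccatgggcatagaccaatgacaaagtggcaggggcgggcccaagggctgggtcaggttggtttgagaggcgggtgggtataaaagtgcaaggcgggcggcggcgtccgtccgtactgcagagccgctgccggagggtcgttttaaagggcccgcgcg
XBP1 (chr22:28800520-28800819, minus strand): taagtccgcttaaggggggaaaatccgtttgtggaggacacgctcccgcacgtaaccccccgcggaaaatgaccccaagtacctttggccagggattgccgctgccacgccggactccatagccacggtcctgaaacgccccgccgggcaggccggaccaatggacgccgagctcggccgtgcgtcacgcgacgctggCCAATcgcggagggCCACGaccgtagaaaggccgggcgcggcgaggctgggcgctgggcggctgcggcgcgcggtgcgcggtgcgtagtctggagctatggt
TXNDC11 (chr16:11742808-11743107, minus strand): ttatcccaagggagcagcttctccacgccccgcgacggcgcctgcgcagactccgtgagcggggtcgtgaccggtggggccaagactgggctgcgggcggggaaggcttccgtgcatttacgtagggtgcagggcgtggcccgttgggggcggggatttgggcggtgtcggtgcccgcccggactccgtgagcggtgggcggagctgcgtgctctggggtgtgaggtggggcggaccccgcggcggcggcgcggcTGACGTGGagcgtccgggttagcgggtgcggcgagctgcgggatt
SEC24A (chr5:134648535-134648834, plus strand): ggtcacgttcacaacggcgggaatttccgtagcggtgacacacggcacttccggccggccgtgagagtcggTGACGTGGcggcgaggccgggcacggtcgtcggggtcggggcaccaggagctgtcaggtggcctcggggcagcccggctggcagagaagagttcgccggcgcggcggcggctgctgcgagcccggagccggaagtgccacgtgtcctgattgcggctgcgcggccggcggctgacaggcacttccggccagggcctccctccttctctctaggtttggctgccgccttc

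The match begins 66 bases before the start in HSPA5 and 52 in XBP1 on the strand of the gene, whereas in CALR it lies on the other strand, 225 bases before the start. In TXNDC11 it follows the start, and in SEC24A it begins 179 bases before it. HSPA5, CALR, XBP1, TXNDC11 and SEC24A were each higher in NCI-H929 than in both lung lines, with nearer log2 changes of 1.85, 1.42, 4.87, 4.23 and 1.45. Not every holder of an element was: HSP90B1, CANX and ERO1B were not called against both lines, and SEC23A, with the XBP1 element, was lower. CRELD2 was higher by 1.603 and 1.03. A match is a description of the letters and not evidence of binding.

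Tuft cell transcription factors were close to absent from NCI-H929, while effector genes were only partly lower. Of 11 tested tuft cell transcription factors and coactivators, 9 were lower than in both lung lines and none was higher. Their scaled values summed to 2.64 and 1.98 in NCI-H929, 2343 and 2383 in NCI-H526 and 1582 and 1487 in NCI-H1048. The fitted median change was -7.42 and -6.24, and since 7 of the 11 are at 0 in NCI-H929 it moves with the added constant, from -8.58 and -8.55 at 0.1 to -6.42 and -5.26 at 1.

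Beside POU2F3, ASCL2, a basic helix-loop-helix factor of tuft and stem cells, was at 0 in NCI-H929 against 83.4 and 86.3 in NCI-H526 and 9.97 and 10.2 in NCI-H1048. SOX9 was at 0.781 and 0.982 in NCI-H929, 369 and 381 in NCI-H526 and 476 and 452 in NCI-H1048, and GFI1B, a zinc finger repressor, at 0.494 and 0.375 in NCI-H929, 85.5 and 88.4 in NCI-H526 and 43.1 and 42.8 in NCI-H1048. The homeobox neighbors HMX2 and HMX3 were both at 0 in NCI-H929, with HMX3 at 175 and 185 in NCI-H526 and 80.8 and 78.3 in NCI-H1048. The 2 members without a common call, FOXE1 and SPIB, were lower than in NCI-H526 alone. FOXE1 was at 10.3 and 10.8 in NCI-H526 and at 0 in both other lines, and SPIB was at 43.2 and 41.0 in NCI-H526 against 1.14 and 0.782 in NCI-H1048 and 1.37 and 0.536 in NCI-H929.

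Of 32 tested tuft cell effectors and markers, 17 were lower than in both lung lines and 2 higher; 27 were lower than in NCI-H526 and 18 lower than in NCI-H1048. The 35 listed effectors summed to 580.3 and 547 in NCI-H929, 6754 and 6835 in NCI-H526 and 4087 and 4399 in NCI-H1048. KIT, the stem cell factor receptor, was at 0 in NCI-H929 against 358 and 361 in NCI-H526 and 279.8 and 299 in NCI-H1048. AVIL (advillin), an actin-binding marker of tuft cells, was at 1.17 and 0.715 in NCI-H929, 794 and 796 in NCI-H526 and 104 and 99.3 in NCI-H1048, and DCLK1 at 0.392 and 0.36 in NCI-H929, 131 and 135 in NCI-H526 and 17.8 and 16.6 in NCI-H1048. IL17RB, the receptor for IL-25, was at 0.195 and 0.446 in NCI-H929, 248 and 249 in NCI-H526 and 129.6 and 130.4 in NCI-H1048, and RGS13, ANXA1 and BMX were lower as well.

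Other effectors that are classical tuft cell genes were not lower than in NCI-H1048. TRPM5, the taste cation channel, was at 17.0 and 15.8 in NCI-H526, 0.25 and 0.0297 in NCI-H1048 and 0 and 0.179 in NCI-H929. PTGS1 (COX-1), the prostaglandin synthase of tuft cells, fell between the lung lines, with 8.29 and 9.11 in NCI-H929, 33.6 and 35.6 in NCI-H526 and 0.724 and 0.892 in NCI-H1048. The 2 higher genes were ALOX5AP, the activator of 5-lipoxygenase, at 7.03 and 9.38 in NCI-H929 and below 1 in the lung lines, and BARX2 at 4.59 and 4.73. ALOX5, the enzyme ALOX5AP serves, was chosen after its values were seen and was lower, at 0.944 and 0.848 against 21.2 and 16.28 in NCI-H526 and 108 and 111 in NCI-H1048.

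The octamer, ATGCAAAT, to which POU2F factors bind, was in 1.58% of tested promoters on either strand, 1.54% of those of higher genes and 2.39% of those of lower genes. Among the lists it was in 5 of 14 promoters of replication-dependent histones (H2AC4, H2AC6, H2AC8, H2BC4 and H2BC7), 3 of 26 of tuft cell effectors (HTR3E, ITPR3 and KCTD12), 2 of 24 of hematopoietic genes (CD53 and FYB1), 1 of 7 of tuft cell factors (HMX2) and 1 of 12 of plasma cell factors (BHLHA15); 6 other lists held 1 each. The promoters of HMX2 and BHLHA15 are printed as lineage factors that were called in opposite directions, with the octamer in capitals.
HMX2 (chr10:123147886-123148185, plus strand): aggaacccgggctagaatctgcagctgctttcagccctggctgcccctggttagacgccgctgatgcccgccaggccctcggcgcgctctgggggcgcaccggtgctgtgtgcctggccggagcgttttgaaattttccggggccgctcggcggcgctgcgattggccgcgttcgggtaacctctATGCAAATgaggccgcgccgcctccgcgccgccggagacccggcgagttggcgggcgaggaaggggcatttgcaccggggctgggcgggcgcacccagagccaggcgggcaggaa
BHLHA15 (chr7:98211189-98211488, plus strand): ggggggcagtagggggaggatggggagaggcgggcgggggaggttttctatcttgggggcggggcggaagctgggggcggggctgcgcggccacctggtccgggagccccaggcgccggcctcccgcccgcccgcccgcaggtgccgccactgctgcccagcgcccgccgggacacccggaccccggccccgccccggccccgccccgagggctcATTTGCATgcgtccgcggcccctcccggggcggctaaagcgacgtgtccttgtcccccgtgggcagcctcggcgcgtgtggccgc

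In HMX2 the octamer begins 65 bases before the start on the strand of the gene, and in BHLHA15 it begins 35 bases before the start on the other strand. HMX2 was at 96.2 and 102 in NCI-H526 and 36.7 and 37.9 in NCI-H1048 and at 0 in NCI-H929. BHLHA15 had the reverse order, with 26.4 and 25.0 in NCI-H929. Neither value bears on whether the octamer was bound.

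Epithelial genes were lower almost throughout. Of 40 tested junction, keratin and epithelial regulator genes, 33 were lower than in both lung lines and 1, PKP2, was higher, with medians of -5.28 and -4.64. These were -5.57 and -5.84 with an added constant of 0.1 and -4.82 and -4.15 with 1. EPCAM, the epithelial adhesion molecule, was at 0.195 and 0.268 in NCI-H929, 429.7 and 441 in NCI-H526 and 152 and 157 in NCI-H1048. CDH1 (E-cadherin) was at 0.882 and 0.179 in NCI-H929, 433 and 454 in NCI-H526 and 35.4 and 36.4 in NCI-H1048, and KRT8 at 1.85 and 1.36 in NCI-H929, 278 and 280.3 in NCI-H526 and 42.1 and 40.7 in NCI-H1048. KRT18, its keratin partner, was lower but still present in NCI-H929, at 12.2 and 13.0.

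The splicing regulator ESRP1, which sets epithelial isoforms, was at 0.0976 and 0 in NCI-H929, 183 and 187 in NCI-H526 and 136 and 134 in NCI-H1048. The desmosome gene DSP, the factor GRHL2, the protease inhibitor SPINT2 and the sorting adaptor AP1M2 had the next largest nearer changes, -7.05 to -7.40. The exception, PKP2, encodes a desmosomal plaque protein and was at 242 and 244 in NCI-H929 against 81.7 and 83.1 in NCI-H526 and 28.5 and 29.6 in NCI-H1048. VIM (vimentin), often read as the opposite of epithelial genes, was highest in NCI-H929 but differed widely between the lung lines. It was at 1111 and 1111 in NCI-H929, 0.0907 and 0.0274 in NCI-H526 and 542 and 569 in NCI-H1048, and was chosen after its values were seen.

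Neuroendocrine markers differed between the lung lines. Of 12 tested, 3 were lower than in both lung lines (INSM1, DLL3 and NCAM1) and none higher, beside 19.6% and 11.9% over all tested genes. Against single lines, 9 were lower than in NCI-H526 and 5 lower than in NCI-H1048, beside 28.9% and 29.6%. INSM1 was at 0 in NCI-H929, 159 and 158 in NCI-H526 and 6.40 and 6.25 in NCI-H1048. DLL3, a Notch ligand, changed by -3.64 and -1.09 on the log2 scale and lost its call against NCI-H1048 with quantile normalization. CHGA (chromogranin A) was at 75.9 and 81.3 in NCI-H526 and at or near 0 in the other lines. NEUROD1, which defines another SCLC subtype, did not pass the filter. NCAM1 (CD56), which is also carried by many myelomas, was at 122 and 117 in NCI-H929, 252 and 259.8 in NCI-H526 and 291 and 280.3 in NCI-H1048.

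Of 25 matrix, integrin and adhesion genes, 12 were lower and 2 higher, and of 15 YAP, TEAD and target genes 7 were lower and 2 higher. Over all tested genes 19.6% were lower and 11.9% higher. COL4A1, a basement membrane collagen, was at 0 and 0.179 in NCI-H929, 62.6 and 62.3 in NCI-H526 and 205 and 199 in NCI-H1048, and LAMB1 at 0 and 0.0893 in NCI-H929, 45.3 and 47.3 in NCI-H526 and 204 and 202 in NCI-H1048. YAP1 itself was at 6.44 and 4.82 in NCI-H929, 2.14 and 2.40 in NCI-H526 and 82.2 and 79.6 in NCI-H1048, lower than in NCI-H1048 alone. TEAD2 and WWTR1 were also lower than in NCI-H1048 alone, and TEAD1 was lower than in both lines (-1.01), as were AMOTL1, AMOTL2, TEAD3, PTPN14, TEAD4 and CCN1 (-1.07 to -4.13). The fibrillar collagen gene COL1A1 was at 0 and 0.0893 in NCI-H929, 0.811 and 0.679 in NCI-H526 and 39.8 and 35.7 in NCI-H1048, and COL1A2 and COL3A1 did not pass the filter. COL4A2, LAMA3, LAMA5 and ITGA2, further basement membrane genes and a collagen receptor, had nearer changes of -1.68 to -6.82. In the other direction, NT5E, CRIM1 and CAV1 were higher by 1.39 to 1.98. CD44, the hyaluronan receptor, was at 1142 and 1154 in NCI-H929, 1.81 and 1.62 in NCI-H526 and 310.2 and 309 in NCI-H1048.

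HOX genes, the homeobox factors of body position, were low in NCI-H929 across all 4 clusters. Of 35 tested, 30 were lower in NCI-H929 than in both lung lines and 1, HOXB13, was higher; the medians of -4.38 and -3.55 depend on the added constant, as 21 of the 39 HOX genes were at 0 in both NCI-H929 libraries. HOXA summed to 6.73 and 7.26 in NCI-H929, 272 and 279 in NCI-H526 and 158 and 147 in NCI-H1048, with 10 of 11 genes lower. HOXB differed least, with sums of 11.5 and 12.1 in NCI-H929, 33.0 and 34.1 in NCI-H526 and 28.5 and 24.8 in NCI-H1048 and 5 of 7 tested genes lower. HOXC summed to 6.83 and 7.95 in NCI-H929, 437 and 444 in NCI-H526 and 280.3 and 266 in NCI-H1048, with 9 of 9 genes lower. HOXD summed to 0.195 and 0.179 in NCI-H929, 139.7 and 143 in NCI-H526 and 111 and 104 in NCI-H1048, with 6 of 8 tested genes lower.

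Single genes of both the 3′ and the 5′ ends of the clusters were involved. HOXA9 was at 0 in NCI-H929 against 71.4 and 72.2 in NCI-H526 and 54.6 and 50.4 in NCI-H1048. HOXC10 was at 0.293 and 0.625 in NCI-H929, 116 and 115 in NCI-H526 and 101 and 96.8 in NCI-H1048, and HOXD10 and HOXD13 were at 0 in NCI-H929. HOXC11 and HOXC12 were also among the lowest (-5.47 to -5.64), HOXA2 and HOXA3 were lower (-3.84 to -4.88), and HOXA4 changed by -0.57 and -1.98. HOXB13 stood at 2.61 and 3.22 in NCI-H929 against 1.12 and 0.909 in NCI-H526 and 1.42 and 0.842 in NCI-H1048, close to the filter, and lost its call with an added constant of 1, at which 28 of the 35 genes stayed lower.

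**Figure D5:**
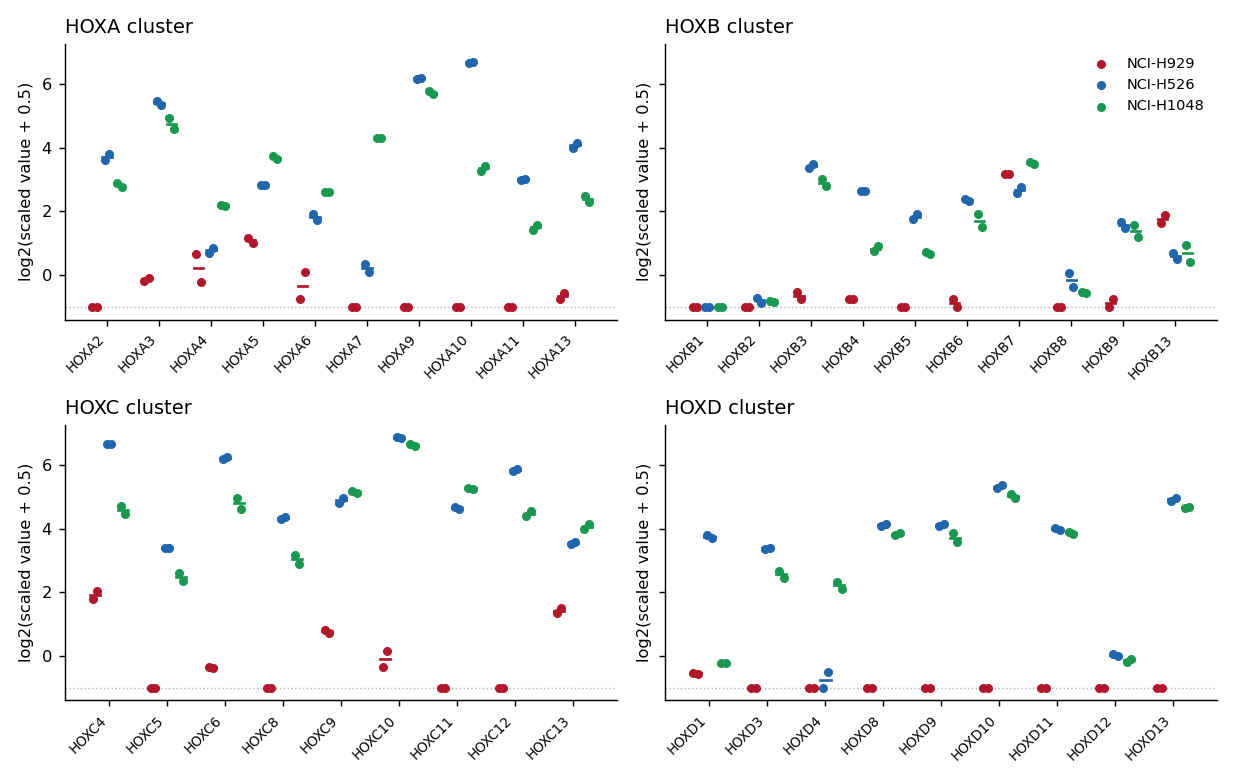
Scaled values, as log2(value + 0.5), of HOX genes of the 4 clusters in the 6 DMSO libraries, 2 points per line with a bar at their mean and a dotted line at a value of 0. NCI-H929 lies at or near 0 for most genes shown, above the lung lines only at HOXB13.

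Of 10 tested genes that immunoglobulin translocations target in myeloma, or that belong to the same families, 4 were higher in NCI-H929 (CCND2, MAF, FGFR3 and NSD2) and 2 lower (MYCN and MYCL). The shares over all tested genes were 11.9% higher and 19.6% lower, so the lower count is near the background. NSD2, the histone H3 lysine methyltransferase, and FGFR3 are deregulated together by t(4;14). NSD2 was at 1325 and 1333 in NCI-H929, 391 and 405 in NCI-H526 and 429.9 and 397 in NCI-H1048, with log2 changes of 1.74 and 1.68, and FGFR3 at 90.9 and 83.8 in NCI-H929, 13.3 and 14.02 in NCI-H526 and 23.5 and 21.4 in NCI-H1048. Of 12 tested genes at 4p16.3, 3 were higher (NSD2, FGFR3 and POLN) and 1, NAT8L, was lower, beside 11.9% and 19.6% over all tested genes. HAUS3 and MXD4, next to NSD2, changed by less than 2-fold, between -0.31 and 0.41 on the log2 scale.

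Of the D cyclins, CCND2 was at 473 and 461 in NCI-H929 and below 1 in every lung library, while CCND1 was at 95.8 and 97.1 in NCI-H929, 72.7 and 73.1 in NCI-H526 and 56.1 and 48.9 in NCI-H1048. MAF was at 348 and 346 in NCI-H929, 0.197 and 0.315 in NCI-H526 and 18.5 and 16.5 in NCI-H1048. The MYC family split by line. MYC was at 299.8 and 317 in NCI-H929, 0.541 and 0.534 in NCI-H526 and 189 and 177 in NCI-H1048, and its change against NCI-H1048 was 0.75, short of 2-fold.

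MYCN was at 1622 and 1658 in NCI-H526, against 5.67 and 6.42 in NCI-H1048 and 0 in NCI-H929. The neighbors DDX1 and NBAS at 2p24 were high in the same line only: DDX1 was at 7099.7 and 7149.6 in NCI-H526, 138 and 151 in NCI-H1048 and 204 and 209 in NCI-H929. NBAS was at 93.3 and 97.3 in NCI-H929, 1614 and 1605 in NCI-H526 and 61.6 and 68.8 in NCI-H1048. Of 5 tested 2p24 genes, 1, MYCN, was called against both lines, a share near the 19.6% called lower over all tested genes.

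Of 20 G1 genes, 5 were higher (MDM2, CDK6, E2F2, RBL2 and CDKN2C) and 4 lower (CDKN1C, CDKN2A, CDKN2D and CCNE2), beside 11.9% and 19.6% over all tested genes, so the lower share is that of the background. RB1, whose loss is typical of SCLC, was at 70.2 and 75.5 in NCI-H929, 54.5 and 59.0 in NCI-H526 and 10.0 and 11.6 in NCI-H1048, a log2 change of 0.36 against the first and 2.70 against the second. CDKN1A and CDKN1B, inhibitors of cyclin-dependent kinases, changed by less than 2-fold against each line. MDM2, a ubiquitin ligase, was at 1447 and 1397 in NCI-H929, 199 and 202 in NCI-H526 and 228 and 216 in NCI-H1048.

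MCL1 was at 2378 and 2417 in NCI-H929, 418 and 428 in NCI-H526 and 344 and 352 in NCI-H1048, whereas BCL2 was at 28.1 and 24.6 in NCI-H929, 138 and 139 in NCI-H526 and 143 and 140.1 in NCI-H1048. BCL2L1 did not reach a 2-fold change (-0.19 and 0.11), and BCL2L2 was lower. Of 15 tested members, 3 were higher (MCL1, BAK1 and BAX) and 4 lower (BOK, PMAIP1, BCL2 and BCL2L2), beside 11.9% and 19.6% over all genes. With total-count scaling the counts were 2 and 5, and with quantile normalization 5 and 3.

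MHC class I presentation was higher in part. Of 16 tested genes, 8 were higher than in both lung lines and none lower, with medians of 2.56 and 2.58. The shares over all tested genes were 11.9% higher and 19.6% lower. HLA-E, a nonclassical class I gene, was at 405 and 406 in NCI-H929, 8.39 and 10.9 in NCI-H526 and 21.3 and 9.10 in NCI-H1048. Classical genes were low in NCI-H1048 alone: HLA-C was at 259 and 268 in NCI-H929, 365 and 359 in NCI-H526 and 0.0504 and 0.0603 in NCI-H1048, and HLA-B had the same order. These genes are near copies of each other and vary between people, so their single values are uncertain.

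The factor IRF1 and the peptide-loading genes TAPBP, TAP2, PSMB10 and ERAP1 were higher, with nearer log2 changes of 3.21, 3.32, 3.04, 3.09 and 1.90. The interferon regulatory factor repeat, GAAANNGAAA, was in 2.72% of tested promoters, 4.13% of those of higher genes and 2.63% of those of lower genes, and in 7 of 13 MHC class I promoters in the table, among them those of ERAP1, PSMB10, TAP2 and TAPBP. The promoter of TAP2 is printed as an example, with the letters of the repeat in capitals.
TAP2 (chr6:32838690-32838989, minus strand): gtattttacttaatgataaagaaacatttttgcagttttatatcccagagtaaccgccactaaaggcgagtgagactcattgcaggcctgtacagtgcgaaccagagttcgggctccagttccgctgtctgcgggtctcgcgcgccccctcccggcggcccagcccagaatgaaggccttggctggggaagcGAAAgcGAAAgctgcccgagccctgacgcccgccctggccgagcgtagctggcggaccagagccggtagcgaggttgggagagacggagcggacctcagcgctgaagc

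In TAP2 the repeat begins 58 bases before the start. TAP2 was at 112 and 115 in NCI-H929, 13.99 and 12.9 in NCI-H526 and 9.65 and 11.4 in NCI-H1048. TAP1, chosen after its values were seen, holds the repeat too and changed by 0.41 and 0.56, less than 2-fold.

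MHC class II genes were close to 0 in all lines. CIITA, their master regulator, was at 2.38 and 3.42 in NCI-H929, 2.22 and 2.33 in NCI-H526 and 2.16 and 2.50 in NCI-H1048, and HLA-DRA and HLA-DRB1 did not pass the filter. CD74, the invariant chain, was at 0 in NCI-H929, 10.4 and 10.99 in NCI-H526 and 9.19 and 9.07 in NCI-H1048. The one higher class II gene was HLA-DOB, at 4.92 and 4.75 in NCI-H929. Of 15 tested NF-kB genes, 3 were higher and none lower, beside 11.9% and 19.6% over all tested genes. NFKB2 and RELB form the pair of the noncanonical pathway, and NFKB2 was at 78.5 and 77.5 in NCI-H929 against at most 23.8 in the lung lines, RELB at 22.8 and 19.6 against at most 3.83, while NFKB1 and RELA were not called against both. CYLD, a deubiquitinase that restrains the pathway, was 1.69 higher.

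The mSWI/SNF remodeler, the target of AU-15330 in the study, was expressed in all 3 lines. SMARCA4, the ATPase BRG1, was at 282 and 307 in NCI-H929, 364 and 369.5 in NCI-H526 and 409.8 and 380.2 in NCI-H1048, less than a 2-fold change. SMARCA2 (BRM), its alternative ATPase, was at 202 and 212 in NCI-H929, 89.2 and 92.3 in NCI-H526 and 103 and 105 in NCI-H1048, with log2 changes of 1.187 and 0.99, the second just under the limit. PBRM1, of the PBAF form, was lower in NCI-H929, at 131 and 127 against 269.8 and 274 in NCI-H526 and 333 and 313 in NCI-H1048.

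Of 29 subunit genes, 1 was higher and 5 lower, with medians of -0.48 and -0.42. These shares of 29 do not exceed the 11.9% and 19.6% over all tested genes. The lower count was 8 with total-count scaling and 7 with quantile normalization. DPF3, an alternative PHD finger subunit, was at 65.4 and 64.6 in NCI-H929, 0.784 and 0.461 in NCI-H526 and 1.77 and 1.90 in NCI-H1048. BCL7A was at 4.65 and 5.16 in NCI-H929, 39.7 and 40.2 in NCI-H526 and 43.7 and 43.1 in NCI-H1048, PHF10 at 31.1 and 29.2 in NCI-H929, 167 and 172 in NCI-H526 and 147 and 135 in NCI-H1048, and SMARCE1 and SMARCC2 were the other lower genes. ARID1A changed by -1.002 and -0.94.

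The counts that follow stand beside 11.9% higher and 19.6% lower over all tested genes. Of 20 MYC-responsive nucleolar genes, 4 were higher (RRP12, NOP16, PPAN and RRS1) and none lower. NCL, NPM1, FBL and NOP56 ranged from -0.52 to 1.26 on the log2 scale over both comparisons. Of 22 S and G2/M genes 1 was higher (RRM2, 1.01 against NCI-H526) and 3 lower (CCNB2, RRM1 and TOP2A). Both counts are below the shares over all genes. RRM2 lost its call with both total-count scaling and quantile normalization, at which 5 and 4 genes of that list were lower. The helicase genes MCM2, MCM3, MCM4 and MCM5 ranged from -1.15 to 1.04. Cytosolic ribosomal proteins had medians of 1.25 and 0.53, with 20 of 30 higher than NCI-H526 and 4 higher than NCI-H1048. Those higher than both were 3 (RPLP1, RPL10 and RPL13), below the share over all genes. RPL3, RPL4, RPL5 and RPL6 ranged from -0.57 to 1.95. The median of all 30 against NCI-H1048 was 0.03 after quantile normalization, at which none of the 30 was called. Transcripts of the mitochondrial genome took 7.52% to 7.57% of NCI-H929 totals and 5.30% to 5.45% of lung line totals. Of 13 mitochondrial messages 3 were higher than in both lines (MT-ND4L, MT-CO2 and MT-ATP6), but 2 with total-count scaling and none with quantile normalization, where the medians were 0.14 and -0.05. In the deposited scaling MT-ND1, MT-ND2, MT-ND3 and MT-ND4 ranged from -0.59 to 1.15.

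Among replication-dependent histone genes, 4 of 12 tested were higher and 1, H1-5, lower, beside 11.9% and 19.6% over all tested genes. H1-2, a linker histone, was at 114 and 116 in NCI-H929, 7.74 and 6.98 in NCI-H526 and 15.9 and 17.6 in NCI-H1048. H2AC6, H4C8 and H1-3 were higher by 2.20 to 2.71, and H1-4 changed by -0.60 and -0.68. Histone, ribosomal and mitochondrial genes have near-identical copies or pseudogenes among which pseudoalignment can split reads, and most histone messages lack poly(A) tails, so these values are uncertain.

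The same comparison among libraries treated with 1 uM AU-15330 used separate libraries of the same lines. It called 1922 of 14562 tested genes higher and 2708 lower. Of the genes higher without the drug, 66.7% were called higher again, or 60.1% of the treated list, and of the lower genes 65.2% were called lower again, or 68.9% of the treated list. Just 7 genes were called in the opposite direction.

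IRF4, POU2AF1 and POU2F3 kept their order between the lines under AU-15330. IRF4 was at 274 and 278 in treated NCI-H929, 0.441 and 0.482 in treated NCI-H526 and 1.05 and 0.932 in treated NCI-H1048. POU2AF1 was at 141 and 146 in NCI-H929, 2.73 and 2.60 in NCI-H526 and 11.7 and 8.49 in NCI-H1048, and POU2F3 at 0.229 and 0.225 in NCI-H929, 247 and 242 in NCI-H526 and 35.5 and 33.1 in NCI-H1048. MYC was at 39.4 and 38.2 in treated NCI-H929 and 41.3 and 36.4 in treated NCI-H1048, with a log2 difference of 0.0027 (adjusted p = 0.987).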

How the data were processed

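Libraries were prepared by the authors from poly(A) RNA of NCI-H929, NCI-H526 and NCI-H1048. Per the study's methods and the submitters' processing notes, reads were trimmed of adapters and pseudoaligned with kallisto to GRCh38, and values were normalized with edgeR and limma. As deposited, the values are a scaled signal per gene, named as CPM, but library totals do not come to 1e+06, so the values were treated as a scaled signal and not as CPM, which the design had assumed. Whole reads were not fully recovered: of values up to 20 reads, 74.8% to 80.1% per library lay within 0.1 of a whole number of the most common low step. A count model was therefore not the main test, and limma-voom on counts rebuilt from that step was an alternative. Strand is not stated, so overlapping and antisense genes may share reads.

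Of 35606 genes, 35444 were matched to GENCODE 44 for coordinates, 162 were not, 27 symbols had been turned into dates and 8463 were at 0 in all 16 libraries. No sample column was left unused. Log2(value + 0.5) was fitted with limma 3.58.1 (limma-trend, R 4.3.3) in 1 model of the 6 DMSO libraries with a mean per line, for 14567 genes with a mean of at least 1. That filter keeps genes of the lung lines sooner than genes of NCI-H929, and the added constant understates changes of low genes. For lists near 0 on 1 side of the comparison, members passed mostly through the other side. Counts among their tested members therefore also reflect the filter. P-values were adjusted by Benjamini-Hochberg within each comparison; a call needed an adjusted p below 0.05 and a 2-fold change. The fit was tested on simulated data.

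The members and the 34 gene lists (702 symbols, 694 in the table, 617 tested) were chosen with earlier results of these data known. Named genes were the POU2F, POU2AF, MYC and mSWI/SNF genes of interest with IRF4, RB1, NSD2 and FGFR3, the 15 largest changes in each direction among genes whose mean reached 10, the first 4 genes of each list and up to 6 of its largest calls in each direction, and the 10 largest NCI-H929 shares. Others were named for a promoter element or chosen after their values were seen. Not all of the latter are marked so where named, among them IGKV3-15, IGHM, LAPTM5, ITGB2, FOXE1 and SPIB. The alternatives were the added constant, the filter, 4 scalings, the variance model, the samples fitted, a replicate block, the minimum change and leaving out each library; a filter at a mean of 1 in any line was chosen after seeing the data. A few genes of the lists are not reported here. MM1.S was not used.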

Additional observations from a re-analysis of the deposited data

How the results depend on the processing

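Counts of genes called against both lung lines depended on the minimum change. With no minimum change, 4095 were higher and 5209 lower than in both lines, 5587 and 6959 against NCI-H526, and 5522 and 6953 against NCI-H1048. With a minimum of 4-fold the counts were 777 and 1462 against both, 1304 and 2328 against NCI-H526, and 1186 and 2514 against NCI-H1048. The other alternatives kept every count within 1.5 times: 1376 to 2223 higher and 2071 to 3297 lower against both, the extremes coming from total-count scaling and quantile normalization, which moved the median change of all genes by -0.17 and -0.24, and by 0.24 and 0.26, against NCI-H526 and NCI-H1048. The filter at a mean of 1 in any line gave 1897 and 2917. Leaving out 1 library gave 1656 to 1761 higher and 2797 to 2904 lower; the lone library of that line is then assumed to vary like the others. With the replicate block the counts were 1733 and 2863. Same-numbered libraries of different lines had deviations with correlations of 0.033, 0.051 and 0.042 across genes. Whether such libraries shared a batch was not tested. Depth was lowest in NCI-H929, which limits its genes near 0.

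Over 22 alternatives, 592 changes of single named genes kept their sign and their side of the adjusted p threshold in 12698 values, fell short of it in 155, passed it in 44 and changed sign in 73; the cause was not tested. With median-ratio scaling, the log2 changes of new sign were against NCI-H526 MT-ND1 0.048, RELA 0.090 and against NCI-H1048 SPIB 0.003. With total-count scaling, the log2 changes of new sign were against NCI-H526 ATF6B -0.037, H2BC4 -0.069, MCM3 -0.17, MTRNR2L12 -0.015 and against NCI-H1048 BCL2L1 -0.15, HAUS3 -0.22, KCTD12 -0.16, MCM2 -0.080, MCM3 -0.11, MT-CO3 -0.24. With total-count scaling without immunoglobulin genes, the log2 changes of new sign were against NCI-H526 ATF6B -0.024, H2BC4 -0.058, MCM3 -0.16, MTRNR2L12 -0.0025 and against NCI-H1048 BCL2L1 -0.14, HAUS3 -0.20, KCTD12 -0.15, MCM2 -0.068, MCM3 -0.093, MT-CO3 -0.23. With quantile normalization, the log2 changes of new sign were against NCI-H526 H1-4 0.098, H2AC8 0.26, H2BC7 0.29, HOXA4 0.40, IGHM 0.14, LAPTM5 0.022, MCM3 -0.056, MT-ND4 -0.35, MT-ND5 -0.30, MTRNR2L12 -0.65, RELA 0.020, RPL5 -0.023, TEAD2 0.43 and against NCI-H1048 CHGA 0.18, DDIT3 0.44, DLL3 0.028, H1-4 0.28, H2AC8 0.062, H2BC4 0.84, H2BC7 0.83, MCM2 -0.032, MCM3 -0.091, MCM4 -0.022, MT-CO3 -0.76, MT-ND2 -0.57, MT-ND3 -0.063, MT-ND4 -0.046, MTRNR2L12 -0.45, RPL3 -0.18, RPL6 -0.11, SPIB 0.98, TRPM5 0.46. With limma-voom on rebuilt counts, the log2 changes of new sign were against NCI-H526 IGHM 0.073, TEAD2 0.089 and against NCI-H1048 CHGA 1.28. With 1 library left out in turn, changes that took both signs against NCI-H526 ran from -0.34 to 0.64 for ATF6B, -0.10 to 0.30 for H2BC4, -0.0077 to 0.030 for MCM3, -0.074 to 0.043 for RELA, -0.17 to 0.085 for TEAD2. With 1 library left out in turn, changes that took both signs against NCI-H1048 ran from -0.036 to 0.25 for BCL2L1, -0.36 to 0.036 for H2BC4, -0.12 to 0.31 for KCTD12, -0.029 to 0.058 for MT-CO3, -0.48 to 0.37 for SPIB, -0.36 to 0.14 for TRPM5.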

Other observations

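Calls on chromosomes 13 and 16 departed from the shares over all tested genes, 11.9% higher and 19.6% lower. Of 239 tested genes on chromosome 13, 8 (3.35%) were higher in NCI-H929 than in both lung lines and 91 (38.1%) lower, with median log2 changes of -1.75 against NCI-H526 and -0.84 against NCI-H1048. Chromosome 16 had the reverse balance, with 116 of 651 genes higher (17.8%) and 60 lower (9.22%) and medians of 0.17 and 0.60. On every other chromosome listed, the share of lower genes was closer to 19.6% than on these 2. Chromosomes 13 and 16 were chosen after the values were seen, and no copy number was measured.

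The messages that took the largest shares of NCI-H929 totals, which are not per length, were MT-CO1 (1.79% and 1.83%), EEF1A1 (1.65% and 1.70%), MT-ND4, JCHAIN, MT-CO2, MT-ND5, IGKC, TXNDC5, MTRNR2L12 and MT-CO3. Together these 10 genes took 10.2% of each NCI-H929 library.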
